A study of Mus musculus with 8 samples.

Results

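The genes described here are 40 mouse genes of glucose metabolism. Their products move glucose and lactate across the cell membrane and break glucose down to pyruvate and lactate. They also switch pyruvate dehydrogenase off or on, and build and degrade glycogen. These genes were listed by name, and all 40 of 40 matched a locus. Of the 80155 loci measured in every heart, 39614 carry a gene symbol (annotated loci). RNA of whole hearts was sequenced, 1 library per heart, from 4 males taken on postnatal day 1 (P1) and 4 males taken on day 7 (P7). All 8 mice were of the outbred stock Hsd:ICR(CD-1), no treatment or genetic change is named for either group, and the atrial appendages were cut off before freezing, so the tissue was a mixture of ventricle, remaining atrium and all their cell types. The study set side by side an age before and an age after the window of cardiac regeneration closes. Expression is given as FPKM, the number of sequenced fragments per kilobase of a locus scaled to the size of the library, so levels of different genes can be compared per length.

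Glycolysis turns glucose into pyruvate in the cytosol and yields ATP without oxygen. Glucose enters through carriers of the Slc2a family, is trapped by hexokinases, is committed to the pathway at phosphofructokinase, and leaves as pyruvate, which lactate dehydrogenase can reduce to lactate. The pyruvate dehydrogenase kinases switch off the enzyme complex that passes pyruvate on to mitochondrial oxidation. The fetal and newborn heart is known to rely on glycolysis and to turn to the oxidation of fatty acids after birth, and many of these enzymes exist as isoforms that differ between striated muscle and other tissues.

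Promoter sequences were read from RefSeq (GRCm38.p6), from 250 bases before to 50 bases after each annotated start, and 38 of the 40 genes had 56 such windows (Slc2a4 and Pdp1 were not used here). The letters ACGTG, which are the core of the hypoxia response element and part of the E-box CACGTG, stood on either strand of 27 of the 56 windows (48.2%), against 6447 of 32851 windows of all genes (19.6%). The letters GCGTG, the other form of that core, stood in 30 of 56 windows (53.6%) against 10639 of 32851 (32.4%). The letters AAGGTCA, a half-site bound by orphan nuclear receptors, stood in 3 of 56 windows (5.36%) against 1550 of 32851 (4.72%). The windows of these genes had a median GC content of 60.2% and those of all genes 52.7%, and windows of the same gene can overlap, so these shares are descriptions without a test. Windows of 5 genes that recur in the results are given 5′ to 3′ in the direction of the gene, with ACGTG and GCGTG on either strand in capitals. They belong to the glucose carrier Slc2a1 (chr4:119108495-119108794, plus strand), the glycolytic enzyme Pgk1 (chrX:106186850-106187149, plus strand), the lactate dehydrogenase Ldha (chr7:46845554-46845853, plus strand) and the pyruvate dehydrogenase kinases Pdk2 (chr11:95041322-95041621, minus strand) and Pdk4 (chr6:5496229-5496528, minus strand).
Slc2a1: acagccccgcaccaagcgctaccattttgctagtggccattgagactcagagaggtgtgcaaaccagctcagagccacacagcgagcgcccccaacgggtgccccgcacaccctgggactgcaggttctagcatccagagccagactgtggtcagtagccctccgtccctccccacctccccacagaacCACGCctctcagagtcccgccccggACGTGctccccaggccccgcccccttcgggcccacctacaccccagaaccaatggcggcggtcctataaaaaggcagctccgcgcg
Pgk1: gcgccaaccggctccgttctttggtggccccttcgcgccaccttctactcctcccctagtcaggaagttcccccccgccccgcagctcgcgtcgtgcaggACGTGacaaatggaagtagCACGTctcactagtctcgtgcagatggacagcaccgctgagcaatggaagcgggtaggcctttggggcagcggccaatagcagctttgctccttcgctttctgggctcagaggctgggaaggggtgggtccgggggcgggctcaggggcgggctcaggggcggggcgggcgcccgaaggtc
Ldha: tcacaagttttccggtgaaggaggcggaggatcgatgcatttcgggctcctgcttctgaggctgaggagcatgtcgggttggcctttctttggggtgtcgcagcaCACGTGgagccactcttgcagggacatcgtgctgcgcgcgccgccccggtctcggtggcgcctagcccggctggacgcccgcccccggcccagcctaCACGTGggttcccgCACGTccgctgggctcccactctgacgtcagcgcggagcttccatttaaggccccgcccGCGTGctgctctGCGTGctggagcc
Pdk2: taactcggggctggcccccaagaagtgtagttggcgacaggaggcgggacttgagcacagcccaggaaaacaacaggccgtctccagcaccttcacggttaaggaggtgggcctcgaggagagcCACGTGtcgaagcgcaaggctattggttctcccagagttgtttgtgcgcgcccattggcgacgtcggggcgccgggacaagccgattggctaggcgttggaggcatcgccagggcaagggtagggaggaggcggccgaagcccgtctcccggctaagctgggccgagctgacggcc
Pdk4: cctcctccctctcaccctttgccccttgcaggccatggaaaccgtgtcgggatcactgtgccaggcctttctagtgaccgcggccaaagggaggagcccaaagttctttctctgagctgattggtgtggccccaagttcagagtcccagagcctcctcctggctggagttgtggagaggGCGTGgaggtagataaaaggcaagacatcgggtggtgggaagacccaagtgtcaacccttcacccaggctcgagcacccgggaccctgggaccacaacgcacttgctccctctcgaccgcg
The Ldha window shown held 7 matches, of which 4 come from 2 copies of CACGTG read on both strands. The Pdk2 window shown held 1 copy of CACGTG, and that of Pdk4 held GCGTG only. Ldha and Pdk2 each had a second window that is not shown. That of Ldha (chr7:46846832-46847131) held 2 matches, both GCGTG, and that of Pdk2 (chr11:95040826-95041125) held 0. All 5 genes shown hold a match, whereas Gpi1, Tpi1, Pgam2, Gys1 and Gbe1 held neither ACGTG nor GCGTG in their windows. A match is a run of letters and not a measured binding site.

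The files hold no fragment counts, but the FPKM of unannotated loci rose in steps of 1 fragment, from which 1 FPKM over 1 kilobase stood for 14.7 to 23.7 fragments per heart. The fewest fragments behind any value of the 40 genes were then about 33.1 (Khk), an estimate that covers counting only. The hearts differed in overall scale. P1 replicate 3 had 14206 unannotated loci at 1 FPKM or more, against 4914 to 7513 in the other hearts, and unannotated loci held from 33.1% (P7 replicate 3) to 72.7% (P7 replicate 4) of the summed FPKM. The median ratio of annotated loci to their mean ran from 0.779 in P1 replicate 3 to 1.16 in P1 replicate 4, and was 1.30 in P7 replicate 3. Most of the 40 genes followed this order, since 35 were highest in P1 replicate 4 and 32 lowest in P1 replicate 3 among the P1 hearts, and 33 were highest in P7 replicate 3 among the P7 hearts. Defining cardiomyocyte markers were abundant at both stages, with a summed FPKM over 9 genes of 19652 to 35245 in P1 and 24677 to 37735 in P7, and of the skeletal muscle list Myh4, Myh1 and Myod1 stayed under 1 FPKM in all 8 hearts, Tnnt3 lay between 0.482 and 1.44 FPKM, and Ckm, which heart muscle also expresses, between 268 and 1352 FPKM. The atrial genes Myl7, Sln and Myl4 together reached 2384 to 3624 FPKM at P1 and 3098 to 4133 FPKM at P7. Some lists for other cells differed more between the stages. Added up, 7 fibroblast markers reached 819 to 1688 FPKM at P1 and 1745 to 2181 FPKM at P7, 7 leukocyte markers 29.3 to 35.6 and 54.4 to 77.5 FPKM, and 9 erythroid markers 1637 to 3853 and 3745 to 5027 FPKM. Of these, 4 of 7 fibroblast and 1 of 7 leukocyte markers (Lyz2) were called higher by the limma criterion described next, beside 7.74% of annotated loci. So were 1 of 6 endothelial markers (Cdh5) and 1 of 5 smooth muscle and pericyte markers (Pdgfrb). In either list 0 were called lower, beside 0.401% of annotated loci. Endothelial Emcn had a lower range at P7 (17.1 to 26.6 FPKM) than at P1 (27.4 to 32.6 FPKM). The same held for smooth muscle Acta2 (90.7 to 199 against 214 to 455 FPKM). Added up, the endothelial list reached 92.9 to 156 FPKM at P1 and 115 to 183 FPKM at P7. The smooth muscle and pericyte list reached 292 to 604 and 241 to 368 FPKM. The 3 hepatocyte markers together reached 49.0 and 28.2 FPKM in P1 replicates 1 and 3, 0.905 and 1.36 FPKM in P1 replicates 2 and 4, and 1.33 to 8.54 FPKM in P7. Of 4 adipocyte markers, Ucp1 reached 3.08 and 10.3 FPKM in P7 replicates 2 and 4, against 0 to 0.147 FPKM in the other hearts. Plin1 reached 0.769 and 1.41 FPKM there, against 0 to 0.0776 FPKM, and Adipoq was also highest there. Fabp4 overlapped between the stages (1126 to 1343 and 1195 to 2002 FPKM). Added up, 6 cycling-cell markers reached 137 to 178 FPKM at P1 and 87.5 to 211 FPKM at P7. The part of all these cells in the results, including that of fat in Slc2a4, was not tested. In whole hearts fewer cells of a type and less RNA per cell cannot be told apart.

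Each stage difference was tested with limma on log2(FPKM + 1) over the 43172 loci that reached 1 FPKM in any heart. A gene was called where the p adjusted by the Benjamini-Hochberg method over these loci was below 0.05 and the mean FPKM differed by a factor of 1.5 or more. All 40 genes passed the filter. Of them, 3 were called higher in P7, namely the glucose carrier Slc2a4 and the kinases Pdk2 and Pdk4, 0 were called lower, and 37 were not called. At an unadjusted limma p under 0.05 the counts were 11 higher and 3 lower, against 25.6% and 4.1% of annotated loci. Among the 17960 annotated loci tested, 7.74% were called higher and 0.401% lower, so the share of 3 in 40 was close to that of all genes. The median log2 fold change of the 40 genes was 0.11, with 24 above and 16 below 0, while that of the annotated loci was 0.19. In 5 genes (Slc2a4, Gpi1, Aldoa, Pdk2 and Pdk4) every P7 heart lay above every P1 heart, against 17.3% of annotated loci, and in 1 gene (Gbe1) every P7 heart lay below, against 2.69%. The scale of the hearts bears on these counts. After median-ratio scaling, which brought the median of the annotated loci from 0.19 to -0.01, the 40 genes had a median of -0.11, 2 were called higher (Slc2a4 and Pdk2) and 5 lower (Pfkp, Pgk1, Eno1, Pdk3 and Gbe1). On that scale every P7 heart lay above every P1 heart in 6 genes (Slc2a4, Pfkm, Aldoa, Pgam2, Pdk2 and Pygm), against 15% of annotated loci. Every P7 heart lay below in 7 (Pfkp, Aldoc, Pfkfb3, Pgk1, Eno1, Pdk3 and Gbe1), against 13.5%. Of all annotated loci 7.74% were called higher and 4.08% lower, so that higher calls made up 65.5% of the calls instead of 95.1%. Directions below are therefore given on the deposited scale, and for some genes also on the scaled one. Ratios or shares within a heart, which do not move with its scale, are given for the isoform pairs and for several gene families.

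**Figure D1:**
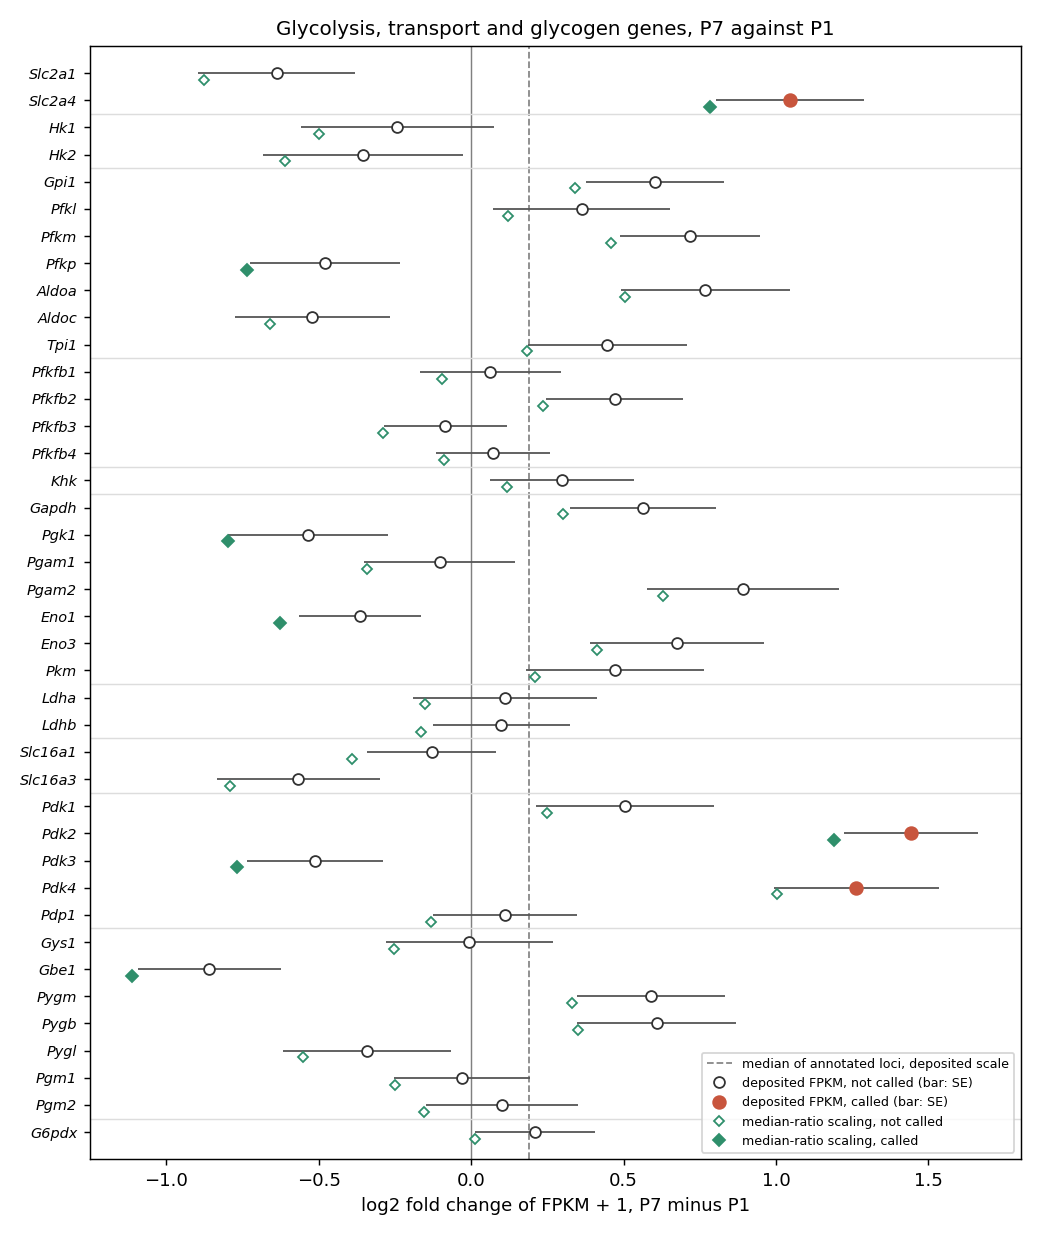
Log2 fold change of FPKM + 1, P7 minus P1, for each of the 40 genes in order of their role, with grey lines between roles. Circles show the deposited values with their limma standard errors, diamonds the values after median-ratio scaling, and filled symbols the called genes. The 3 filled circles lie to the right (Slc2a4, Pdk2 and Pdk4), every diamond lies to the left of its circle, and 5 filled diamonds lie left of 0. The dashed line marks the median of the annotated loci, 0.19.

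The glucose carriers moved apart. Slc2a4, the insulin-responsive carrier GLUT4 of muscle and fat (chr11:69942430-69948205), measured 118, 102, 77.3 and 165 FPKM in the P1 hearts and 239, 200.3, 280.2 and 213 FPKM in the P7 hearts. All 4 P7 hearts lay above all 4 P1 hearts. Its mean rose 2.02-fold, from 116 ± 36.9 to 233 ± 35.3 FPKM (SD, n = 4 per stage), with a log2 fold change of 1.05 (SE 0.24, limma adjusted p = 0.0346). The call was lost with GC correction (0.80, limma adjusted p = 0.114), with median-ratio scaling and GC correction together (0.53, limma adjusted p = 0.0446, with a ratio of means under 1.5), without a filter on low loci (limma adjusted p = 0.0718), and when P1 replicate 1, 2 or 3 or P7 replicate 1, 3 or 4 was left out (limma adjusted p of 0.0692, 0.119, 0.0816, 0.0942, 0.0965 and 0.0684). Slc2a1, the widely expressed carrier GLUT1 (chr4:119108711-119138801), measured 11.98, 9.83, 10.01 and 9.19 FPKM in P1 and 4.09, 4.46, 10.9 and 7.09 FPKM in P7. Only P7 replicate 3 reached into the P1 range. Its log2 fold change was -0.64 (SE 0.26, limma adjusted p = 0.209) on the deposited scale and -0.88 after median-ratio scaling (limma adjusted p = 0.0538), and it was called lower only with median-ratio scaling and GC correction together (-1.09, limma adjusted p = 0.0425). The ratio of Slc2a4 to Slc2a1 within a heart ran from 7.72 to 17.9 in P1 and from 25.6 to 58.3 in P7. Its geometric mean was 3.45-fold higher in P7, a log2 difference of 1.79 (exact two-sided permutation test, p = 0.0286, the smallest that 4 against 4 hearts can give, and 0.0476 adjusted over 5 isoform pairs). Without P7 replicate 1 the log2 difference was 1.58 (exact permutation test, p = 0.0571).

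**Figure D2:**
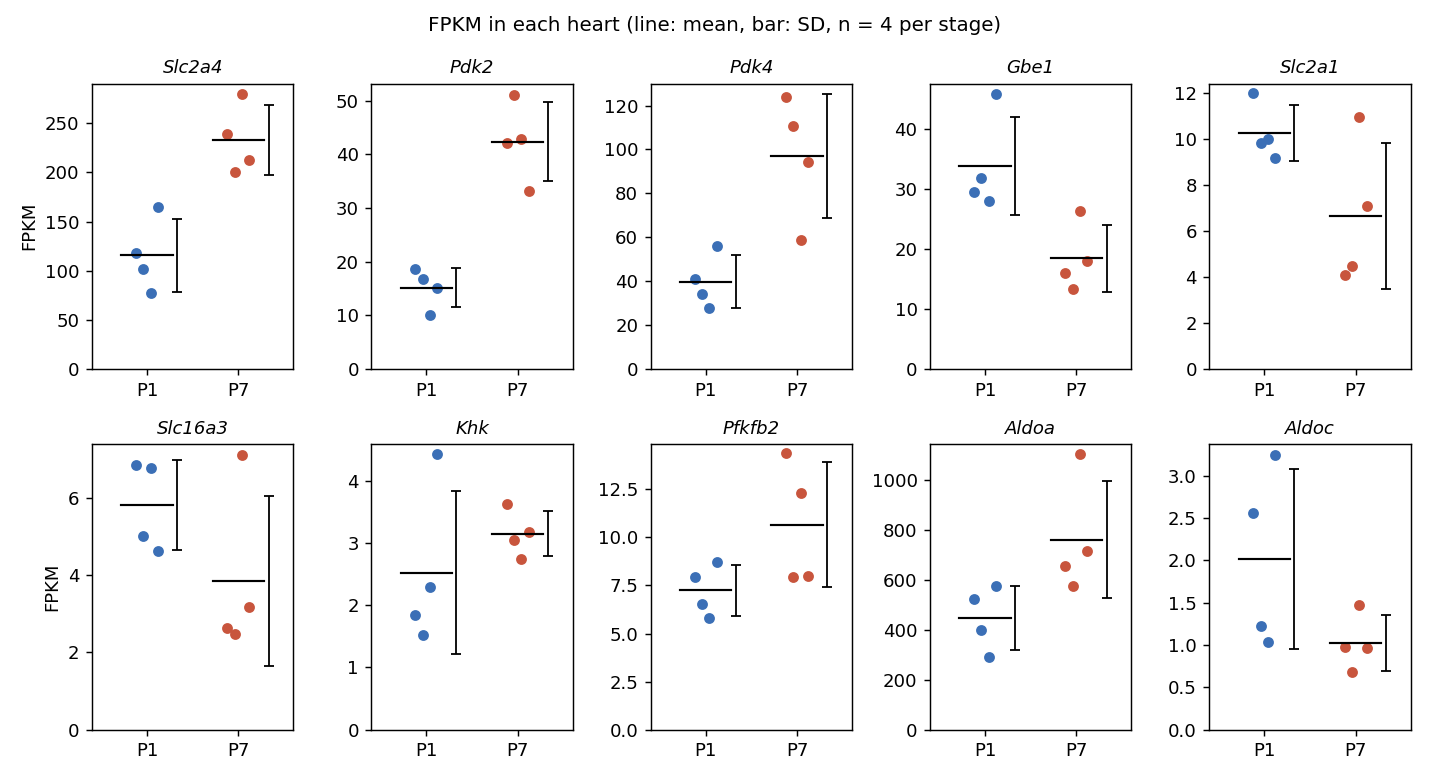
FPKM of 10 genes in each heart (points), with the mean (line) and SD (bar) of the 4 hearts of each stage, on linear axes that start at 0. The upper row holds the 3 called genes, Gbe1, in which every P7 heart lies below every P1 heart, and Slc2a1, and the lower row Slc16a3, Khk, Pfkfb2, Aldoa and Aldoc, of which only Aldoa has stages that do not overlap.

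Hexokinases phosphorylate glucose as it enters the cell. Hk1, the form of most tissues, measured 39.7, 42.4, 25.5 and 66.5 FPKM in P1 and 25.1, 25.6, 59.0 and 37.7 FPKM in P7, and Hk2, the form of insulin-sensitive muscle, 18.6, 22.8, 19.2 and 23.2 FPKM in P1 and 14.6, 7.46, 32.4 and 18.1 FPKM in P7. The stages overlapped for both genes, and Hk2 spread more widely in P7 (SD 10.5 FPKM) than in P1 (SD 2.39 FPKM). The log2 fold changes were -0.24 (SE 0.32) for Hk1 and -0.36 (SE 0.33) for Hk2, with limma adjusted p of 0.651 and 0.532. The ratio of Hk2 to Hk1 lay between 0.349 and 0.751 in P1 and between 0.291 and 0.581 in P7, with a log2 difference of -0.14 (exact permutation test, p = 0.743, adjusted 0.929). Hk1 was thus the more abundant transcript per length in all 8 hearts.

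Of the 7 genes for the steps from glucose phosphate to triose phosphate 0 were called by limma, and 3 (Gpi1, Pfkm and Aldoa) had an unadjusted p under 0.05 with a positive difference, as 25.6% of annotated loci did. Gpi1, the isomerase that follows hexokinase, measured 91.7 ± 20.2 FPKM in P1 and 139 ± 30.3 in P7, and its stages did not overlap (log2 fold change 0.60, SE 0.23, limma adjusted p = 0.177), although they did after median-ratio scaling. Tpi1, triose phosphate isomerase, measured 172 ± 43.1 FPKM in P1 and 237 ± 75.5 FPKM in P7 with overlapping stages. Aldoa, the muscle aldolase and the most abundant of the 40 transcripts, measured 524, 398, 291 and 573 FPKM in P1 and 653, 574, 1100.2 and 713 FPKM in P7. The P7 hearts lay above the P1 hearts, but by only a narrow margin between P1 replicate 4 and P7 replicate 2 (log2 fold change 0.77, SE 0.28, limma adjusted p = 0.162). Its locus (chr7:126795234-126809108) is joined in the files with Gm15676, so the value is not of Aldoa alone. Aldoc, the brain-type aldolase, was the weakest of the 40 transcripts, with 2.56, 1.23, 1.04 and 3.24 FPKM in P1 and 0.976, 0.687, 1.47 and 0.963 FPKM in P7 (log2 fold change -0.52, SE 0.25, limma adjusted p = 0.295). Of the summed FPKM of both aldolases, Aldoc held 0.308% to 0.563% in P1 and 0.120% to 0.149% in P7, ranges that did not overlap.

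Phosphofructokinase, the committing step, has a muscle (Pfkm), a platelet (Pfkp) and a liver (Pfkl) form, and the shares of the muscle and platelet forms did not overlap between the stages, while none of the 3 was called on the deposited scale. Pfkm measured 45.0 ± 12.1 FPKM in P1 and 73.9 ± 15.8 in P7 (log2 fold change 0.72, SE 0.23, limma adjusted p = 0.112), Pfkp 36.5 ± 10.6 and 25.9 ± 7.56 (-0.48, SE 0.25, limma adjusted p = 0.318), and Pfkl 10.8 ± 3.30 and 14.6 ± 6.47 (0.36, SE 0.29, limma adjusted p = 0.481). Of the summed FPKM of the 3 forms, Pfkm held 49.5%, 49.2%, 48.4% and 48.1% in the P1 hearts and 66.3%, 68.9%, 61.7% and 63.7% in the P7 hearts. The share was nearly the same in all P1 hearts, which differed in scale, and every P7 heart lay well above them. The share of Pfkp lay between 36.9% and 41.1% at P1 and between 21.3% and 23.2% at P7, while the shares of Pfkl overlapped (10.5% to 13.6% and 9.86% to 15.1%). These shares are descriptions, with no test.

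The bifunctional Pfkfb enzymes make and remove the sugar bisphosphate that activates phosphofructokinase. All 4 were weak, and 0 were called by limma or had an unadjusted p under 0.05, beside 25.6% of annotated loci with a positive and 4.1% with a negative difference. Pfkfb2, the heart form, measured 7.96, 6.56, 5.79 and 8.73 FPKM in P1 and 14.4, 7.96, 12.3 and 7.99 FPKM in P7. P7 replicates 2 and 4 lay inside the P1 range and the other P7 hearts above it (log2 fold change 0.47, SE 0.22, limma adjusted p = 0.285). Within the family its share ran from 49.3% to 51.7% at P1 and from 54.3% to 63.9% at P7, and these ranges did not overlap. Pfkfb3, known as the hypoxia-induced form, measured 3.91 ± 1.08 FPKM in P1 and 3.57 ± 0.471 in P7. Pfkfb1 measured 1.65 ± 0.392 and 1.85 ± 0.915, and Pfkfb4 1.49 ± 0.195 and 1.64 ± 0.438. The stages of all of them overlapped on the deposited scale, whereas Pfkfb3 lay lower in every P7 heart after median-ratio scaling.

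Fructose can enter the pathway below phosphofructokinase through ketohexokinase, Khk. Its locus (chr5:30921516-30931246) measured 1.85, 1.52, 2.29 and 4.42 FPKM in P1 and 3.62, 3.05, 2.75 and 3.17 FPKM in P7. P1 replicate 4 was the highest of all 8 hearts and the other P1 hearts lay below every P7 heart, so the stages overlapped (log2 fold change 0.30, SE 0.24, limma adjusted p = 0.477), and GC correction turned the sign (-0.13, limma adjusted p = 0.754). The files give 1 value for the whole gene, so its splice forms Khk-A and Khk-C were not separated here.

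**Figure D3:**
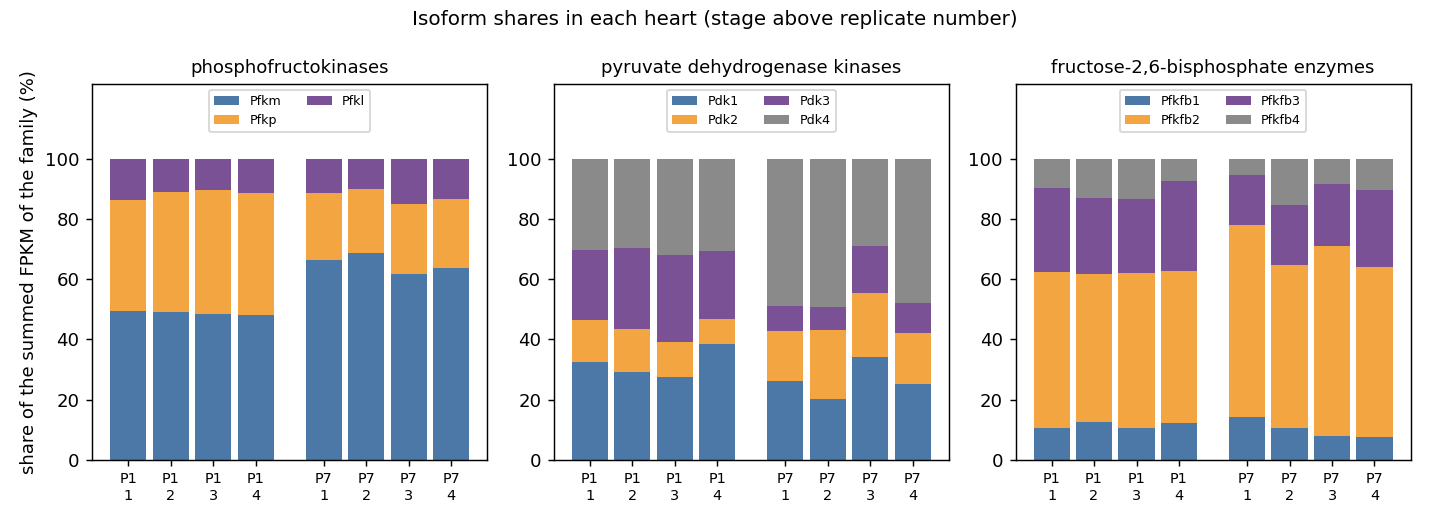
Share of each isoform in the summed FPKM of its family, in percent, for each of the 8 hearts, with 1 stacked bar per heart. Pfkm holds 48.1%-49.5% in P1 and 61.7%-68.9% in P7, Pdk3 22.7%-28.7% and 7.77%-15.4%, and Pfkfb2 49.3%-51.7% and 54.3%-63.9%.

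The lower part of glycolysis, from glyceraldehyde 3-phosphate to pyruvate, had 7 genes, of which 0 were called by limma and 3 (Gapdh, Pgam2 and Eno3) had an unadjusted p under 0.05 with a positive difference, again beside 25.6% of annotated loci. Gapdh measured 228 ± 50.6 FPKM in P1 and 339.6 ± 80.3 in P7 (log2 fold change 0.56, SE 0.24, limma adjusted p = 0.233), and Pkm, pyruvate kinase, 126 ± 43.2 and 176 ± 61.9 (0.47, SE 0.29, limma adjusted p = 0.393). Pgk1, the enzyme of the ATP-yielding step after Gapdh, had a negative log2 fold change, with 135 ± 36.4 FPKM in P1 and 94.2 ± 30.8 in P7. It was not called on the deposited scale (log2 fold change -0.53, SE 0.26, limma adjusted p = 0.2998) and was called lower after median-ratio scaling (-0.80, limma adjusted p = 0.0187), where every P7 heart lay below every P1 heart. Gapdh, Pgk1, Tpi1, Aldoa, Ldha, Eno1 and Pgam1 have processed pseudogenes with near-identical sequence, and how the reads shared with them were counted is not given in the sources used here, so their levels are uncertain.

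The muscle forms of phosphoglycerate mutase and enolase gained on their partners. Pgam2, the muscle mutase, measured 399, 310.0, 211 and 482 FPKM in P1 and 530.4, 424, 1008 and 660.0 FPKM in P7, and its partner Pgam1 13.2, 11.6, 7.99 and 14.3 FPKM in P1 and 7.10, 10.5, 15.9 and 10.7 FPKM in P7. Both genes had overlapping stages on the deposited scale, whereas Pgam2 lay higher in every P7 heart after median-ratio scaling. The log2 fold changes were 0.89 (SE 0.31, limma adjusted p = 0.151) for Pgam2 and -0.10 (SE 0.25, limma adjusted p = 0.812) for Pgam1. Within a heart the ratio of Pgam2 to Pgam1 lay between 26.4 and 33.7 in P1 and between 40.5 and 74.7 in P7. The ranges did not overlap, and the geometric mean was 2.01-fold higher in P7 (log2 difference 1.01, exact permutation test, p = 0.0286, adjusted 0.0476). With GC correction the log2 difference was 0.78 and with quantile normalization 1.03, each with an exact permutation p of 0.0571. Leaving out any 1 of the 4 P1 hearts gave log2 differences of 1.03, 0.97, 0.96 and 1.08, each with an exact permutation p of 0.0571.

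Enolase showed a like shift with different components. Eno3, the muscle enolase, measured 157, 136, 111 and 241 FPKM in P1 and 202, 197, 391 and 241 FPKM in P7, and Eno1, the form of most tissues, 147, 140.4, 132 and 168 FPKM in P1 and 93.2, 107, 149 and 111 FPKM in P7. The forms stood at similar levels in the P1 hearts, whereas all 4 P7 hearts had more Eno3 than Eno1. The ratio of Eno3 to Eno1 ran from 0.837 to 1.44 in P1 hearts and from 1.84 to 2.63 in P7 hearts, with a geometric mean 2.07-fold higher in P7 (log2 difference 1.05, exact permutation test, p = 0.0286, adjusted 0.0476). Without P7 replicate 3 the log2 difference was 0.96 (exact permutation test, p = 0.0571). Taken singly, neither gene was called on the deposited scale (Eno3 0.68, SE 0.28, limma adjusted p = 0.230, and Eno1 -0.36, SE 0.20, limma adjusted p = 0.347), and Eno1 was called lower after median-ratio scaling (-0.63, limma adjusted p = 0.0311).

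**Figure D4:**
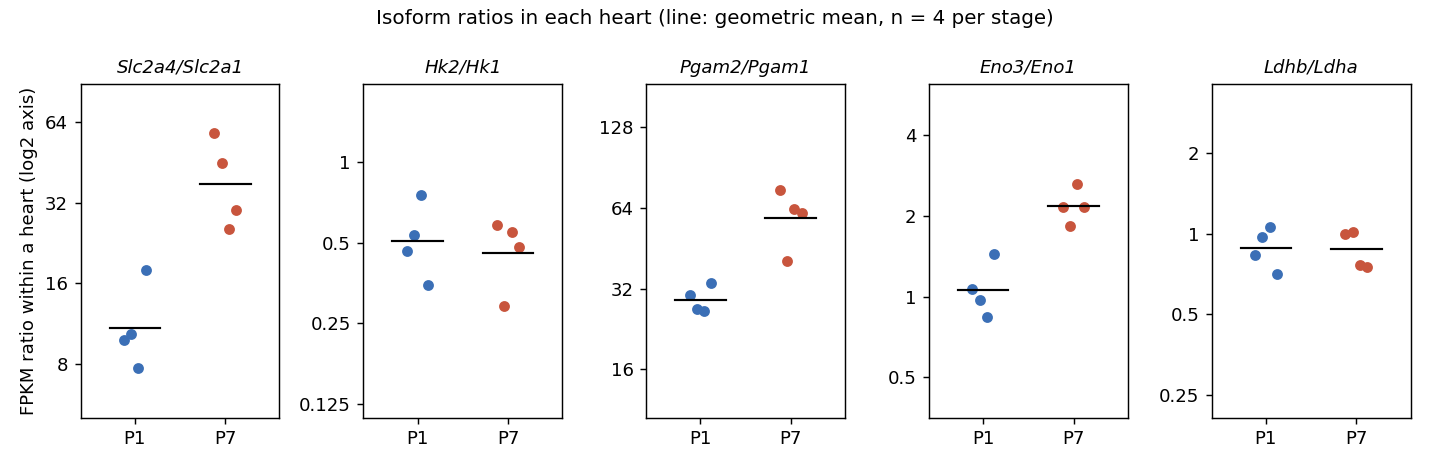
Ratio of the FPKM of both genes of a pair in each heart (points, log2 axes that span the same number of doublings), with the geometric mean of the 4 hearts of each stage (line). The P7 hearts lie above the P1 hearts for Slc2a4/Slc2a1, Pgam2/Pgam1 and Eno3/Eno1, whereas the stages overlap for Hk2/Hk1 and Ldhb/Ldha.

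The lactate dehydrogenase ratio showed no such separation. Ldha, whose product favours lactate formation, measured 166, 143, 109 and 271 FPKM in P1 and 149.8, 127, 272 and 184 FPKM in P7, and Ldhb, the heart form, 138, 138, 115 and 192 FPKM in P1 and 149.6, 129, 208 and 138 FPKM in P7. Both genes overlapped between the stages (log2 fold changes 0.11, SE 0.30, and 0.10, SE 0.22, with limma adjusted p of 0.835 and 0.800). The ratio of Ldhb to Ldha ran from 0.708 to 1.05 in P1 hearts and from 0.749 to 1.01 in P7 hearts, a log2 difference of -0.01 (exact permutation test, p = 0.971, adjusted 0.971). The difference between the pairs was not tested.

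Lactate crosses the membrane through monocarboxylate carriers. Slc16a1, the carrier MCT1 that is widely used for uptake, measured 81.8 ± 5.37 FPKM in P1 and 76.6 ± 21.5 in P7 with overlapping stages. Slc16a3, the carrier MCT4 known for lactate export, measured 6.84, 4.99, 6.75 and 4.63 FPKM in P1 and 2.64, 2.47, 7.10 and 3.16 FPKM in P7. P7 replicates 1, 2 and 4 lay below every P1 heart and P7 replicate 3 above them all (log2 fold change -0.57, SE 0.27, limma adjusted p = 0.279). The files hold a further locus with the same symbol and the same coordinates (chr11:120948480-120961176), which measured 3.68, 0.389, 1.92 and 4.37 FPKM in P1 and 4.18, 4.10, 5.01 and 5.25 FPKM in P7. Its log2 fold change had the opposite sign (0.82, SE 0.35, limma adjusted p = 0.232). Summed over both loci, Slc16a3 stood at 8.39 ± 2.16 FPKM in P1 and 8.48 ± 2.56 in P7, so the direction of this gene rests on which locus is read.

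Of the 5 genes for the pyruvate dehydrogenase kinases and their phosphatase, 2 were called higher by limma and 0 lower. Among annotated loci 7.74% were called higher and 0.401% lower. After median-ratio scaling 1 of the 5 was called higher (Pdk2) and 1 lower (Pdk3), beside 7.74% and 4.08%. Pdk2 (chr11:95026258-95041354) measured 18.6, 16.7, 10.04 and 15.2 FPKM in P1 and 42.1, 51.1, 42.9 and 33.2 FPKM in P7. The lowest P7 heart stood far above the highest P1 heart. The mean rose 2.80-fold, from 15.1 ± 3.65 to 42.3 ± 7.32 FPKM, with a log2 fold change of 1.44 (SE 0.22, limma adjusted p = 0.00789), the largest among the 40 genes. It was called with each heart left out in turn (limma adjusted p up to 0.0330) and was lost only with median-ratio scaling and GC correction together (0.83, limma adjusted p = 0.0509). Pdk4, the form known to respond to fasting and fatty acids (chr6:5483281-5496309), measured 40.9, 34.3, 27.5 and 55.8 FPKM in P1 and 124, 111, 58.8 and 94.2 FPKM in P7. P7 replicate 3 lay just above the highest P1 heart and the other P7 hearts far above, whereas the stages of Pdk4 overlapped after median-ratio scaling. Its mean rose 2.45-fold, from 39.6 ± 12.1 to 96.9 ± 28.2 FPKM, with a log2 fold change of 1.26 (SE 0.27, limma adjusted p = 0.0271). The call was lost after median-ratio scaling (1.00, limma adjusted p = 0.0518), with quantile normalization (1.03, limma adjusted p = 0.0620), without a filter (limma adjusted p = 0.0624), and without P1 replicate 1, 2 or 3 or P7 replicate 1, 2 or 4 (limma adjusted p of 0.0505, 0.0928, 0.0725, 0.0865, 0.0555 and 0.0569).

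The remaining kinases and the phosphatase were not called on the deposited scale. Pdk1, known as a hypoxia-induced kinase, measured 42.7 ± 19.8 FPKM in P1 and 57.6 ± 11.9 in P7 (log2 fold change 0.51, SE 0.29, limma adjusted p = 0.367). Pdk3 measured 32.1 ± 6.82 and 22.4 ± 6.04 FPKM (-0.51, SE 0.22, limma adjusted p = 0.245) and was called lower after median-ratio scaling (-0.77, limma adjusted p = 0.00826). Pdp1, the phosphatase that reactivates pyruvate dehydrogenase, measured 12.2 ± 3.81 and 13.1 ± 2.88 FPKM with overlapping stages. On the deposited scale the 4 kinases together reached 85.9 to 182 FPKM at P1 and 196 to 254 FPKM at P7. These ranges did not overlap, but the sum was not examined after median-ratio scaling. Within that sum Pdk3 held 22.7%-28.7% in P1 and 7.77%-15.4% in P7, and Pdk2 8.33%-14.4% and 16.6%-22.7%, each without overlap. Pdk4 held 29.6% to 32.0% in P1 and 48.1% to 49.2% in P7 replicates 1, 2 and 4, but 29.1% in P7 replicate 3. Given as shares, these values carry no test.

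Of the 7 glycogen genes 0 were called by limma on the deposited scale, and an unadjusted p under 0.05 was found for Pygm and Pygb with a positive and Gbe1 with a negative difference, beside 25.6% and 4.1% of annotated loci. Gbe1, the branching enzyme that adds side chains to glycogen (chr16:70313937-70569716), had the lowest log2 fold change of the 40 genes. It measured 29.5, 32.0, 28.1 and 46.0 FPKM in P1 and 16.0, 13.4, 26.4 and 18.0 FPKM in P7, and all P7 hearts lay below all P1 hearts. Its mean was 33.9 ± 8.22 FPKM in P1 and 18.4 ± 5.62 in P7, with a log2 fold change of -0.86 (SE 0.24) that missed the threshold on the deposited scale (limma adjusted p = 0.0658) and passed it after median-ratio scaling (-1.11, limma adjusted p = 0.00483). Gys1, the muscle glycogen synthase, measured 17.7 ± 5.83 and 17.8 ± 7.08 FPKM. The phosphorylases Pygm (muscle, 61.5 ± 19.1 and 91.0 ± 18.1 FPKM) and Pygb (brain, 42.9 ± 15.9 and 64.0 ± 14.4 FPKM) had log2 fold changes of 0.59 and 0.61 and limma adjusted p of 0.218 and 0.240. Both kept overlapping shares of the phosphorylase sum, while Pygl, the liver form, held 3.49% to 5.30% of it in P1 and 1.83% to 3.01% in P7. The phosphoglucomutases were named by the older symbols. The locus named Pgm1 on chromosome 5 (chr5:64092936-64128455) measured 5.04 ± 1.36 and 4.93 ± 1.31 FPKM and the locus named Pgm2 on chromosome 4 (chr4:99765402-99987294) 35.7 ± 11.4 and 38.0 ± 9.96 FPKM, and RefSeq gives these symbols the other way round. G6pdx, the entry enzyme of the pentose phosphate pathway, measured 2.67 ± 0.254 FPKM in P1 and 3.31 ± 0.893 in P7 with overlapping stages.

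The levels of the 40 genes spanned a wide range per length. Aldoa, Pgam2 and Gapdh were highest by mean FPKM over all hearts, and Aldoc, Pfkfb4 and Pfkfb1 lowest. The summed FPKM of all 40 genes was 3143, 2645, 2073 and 3833 in the P1 hearts and 3547, 3214, 5717 and 3963 in the P7 hearts. P1 replicate 4 lay above P7 replicates 1 and 2, so the sum overlapped between the stages.

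Further genes of these pathways were taken from a list of 70, of which 69 had a locus and 58 passed the filter. Of the 58, 8 were called higher and 1 lower, beside 7.74% and 0.401% of annotated loci, and their median log2 fold change was 0.24. The cytosolic glycerol 3-phosphate dehydrogenase Gpd1, which passes reducing equivalents from glycolysis towards the mitochondrion, had the largest change of these genes. It measured 4.36, 2.42, 2.16 and 4.94 FPKM in P1 and 9.31, 14.3, 15.6 and 15.2 FPKM in P7, a rise of 3.92-fold in the mean (log2 fold change 1.74, SE 0.25, limma adjusted p = 0.00667). Sord, which turns sorbitol into fructose, rose 2.45-fold from 15.2 ± 5.01 to 37.1 ± 9.09 FPKM (1.26, SE 0.25, limma adjusted p = 0.0210), and Fbp2, the muscle fructose bisphosphatase, 2.38-fold from 3.19 ± 0.805 to 7.59 ± 1.37 FPKM (1.04, SE 0.20, limma adjusted p = 0.0197). The other genes called higher were the carrier Slc2a8 (2.23 ± 0.482 to 4.94 ± 0.543 FPKM), the D-lactate dehydrogenase Ldhd (0.776 ± 0.218 to 2.30 ± 0.416 FPKM), the mitochondrial carboxykinase Pck2 (2.05 ± 0.732 to 4.57 ± 1.05 FPKM), the phosphorylase kinase subunit Phkg1 (1.46 ± 0.126 to 3.14 ± 0.523 FPKM) and the glycogen synthase kinase Gsk3a (15.3 ± 2.11 to 27.2 ± 3.79 FPKM). Every P7 heart lay above every P1 heart in 15 of the 58 genes and below in 3, against 17.3% and 2.69% of annotated loci. The 8 genes called higher were among the 15, which their choice by limma makes likely. Phkg1 and Gsk3a lost the call after median-ratio scaling. Of the 8 fits that each left out 1 heart, Gpd1 was called in 8, Fbp2 in 5, Sord in 4, Slc2a8 in 3, Ldhd and Gsk3a in 2, and Pck2 and Phkg1 in 1. Pck2, Phkg1 and Gsk3a were also not called without a filter (limma adjusted p of 0.0933, 0.0632 and 0.0573), and Pck2 not with a pseudocount of 0.1 (limma adjusted p = 0.0548). With GC correction 4 of the 9 calls remained (Gpd1, Sord, Fbp2 and Stbd1). The pyruvate carrier subunits Mpc1 (117 ± 15.2 and 156 ± 57.5 FPKM) and Mpc2 (529 ± 73.0 and 671 ± 216 FPKM) overlapped between the stages and were not called. The same held for the pyruvate dehydrogenase subunits Pdha1 (222 ± 57.8 and 235 ± 67.9 FPKM) and Dlat (89.1 ± 19.7 and 111 ± 35.0 FPKM). Of all 9 tested genes for pyruvate import and pyruvate dehydrogenase, 0 were called on the deposited scale. After median-ratio scaling 0 were called higher and 1 lower, beside 7.74% and 4.08% of annotated loci.

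The list held 18 tested glycogen genes. Of them 2 were called higher (Phkg1 and Gsk3a) and 1 lower (Stbd1), beside 7.74% and 0.401% of annotated loci. The log2 fold change was positive in 11 and negative in 7. Every P7 heart lay above every P1 heart in 4 and below in 3, against 17.3% and 2.69% of annotated loci. After median-ratio scaling 1 was called higher and 4 lower, beside 7.74% and 4.08%. Stbd1, a protein that binds glycogen and tethers it to membranes, measured 8.67, 9.47, 8.60 and 14.2 FPKM in P1 and 5.49, 2.60, 5.83 and 4.25 FPKM in P7, and its mean fell from 10.2 ± 2.65 to 4.54 ± 1.46 FPKM (log2 fold change -1.03, SE 0.24, limma adjusted p = 0.0352). It was called in 1 of the 8 fits that left out a heart (limma adjusted p up to 0.0992), and not without a filter (limma adjusted p = 0.0737) or without a trend (limma adjusted p = 0.0519). Glycogenin, Gyg, the primer of glycogen synthesis, was named after its values were seen. It measured 69.2, 58.3, 62.8 and 79.7 FPKM in P1 and 46.5, 37.9, 52.4 and 38.3 FPKM in P7, and all P7 hearts lay below all P1 hearts, as they did for Stbd1. Its log2 fold change was -0.62 (SE 0.19, limma adjusted p = 0.102). It was not called on the deposited scale and was called lower after median-ratio scaling (-0.88, limma adjusted p = 0.00357), as Gbe1 was.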

How the data were processed

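RNA-seq libraries of 8 mouse hearts (4 P1, 4 P7) were made by the authors from ribosome-depleted total RNA with the ScriptSeq v2 kit and sequenced as pairs. Reads were aligned for the authors by a company to GRCm38, annotated with Ensembl release 70. The aligner is not given in the sources used here. The deposited values are FPKM per locus. The files hold no counts, so the depth was estimated from whole steps of weak unannotated loci of 1000 to 3000 bases, 96.3% to 99.1% of which lay within 3% of a multiple of up to 5 fragments. File starts count from 0 and are given here from 1.

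Comma-joined symbols were separated and matched ignoring case, keeping, of several loci, that of highest mean FPKM. Loci reaching 1 FPKM in any heart were tested with limma 3.58.1 (R 4.3.3) on log2(FPKM + 1), a pseudocount of 1, with a trend and no covariate over all 8 hearts. P-values were adjusted over all 43172 loci. Fold changes on this scale understate those of weak genes. Within-heart log2 ratios of 5 isoform pairs were compared with an exact two-sided permutation test (70 assignments, Python 3.11.15). The script was tested on simulated data. The labels give 1 animal per library.

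Values in every heart are given for the isoform pairs, the genes of the study's fructose comparison, the called genes among the 40 and the extremes. Alternatives were a pseudocount of 0.1, other filters, median-ratio and quantile scaling, a replicate block, sample weights, no trend, the adjusted p alone, GC correction (GENCODE M21 transcripts, lowess span 0.3) and leaving out each heart. Median-ratio scaling with GC correction was added after seeing the data. The genes and lists were chosen with earlier results of these data known. Tigar had no locus. A result for 1 further gene of the list is not reported here.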

Additional observations from a re-analysis of the deposited data

Results flagged for a closer look

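A value far from those of the other hearts of its stage (by Dixon's ratio of the gap to the range) was found in 2 of 90 groups of 4 hearts, where chance gives about 4.5, since 1 in 20 groups is flagged by chance. Slc16a3 measured 7.10 FPKM in P7 replicate 3 and 2.47 to 3.16 FPKM in the other P7 hearts (ratio 0.851), and Gys1 measured 28.4 FPKM in P7 replicate 3 and 13.6 to 15.2 FPKM in the others (ratio 0.891). P7 replicate 3 was the highest P7 heart for 33 of the 40 genes and had the highest median ratio of annotated loci, 1.30. The part of that scale in these values was not tested.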

How the results depend on the processing

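Among the 40 genes, 3 were called on the deposited scale, all higher in P7. The count was 1 without a filter, 6 with at least 1 FPKM in every heart, 5 with sample quality weights, and 1 to 5 with 1 heart left out. It was 7 with median-ratio scaling and with quantile normalization (each 2 higher and 5 lower) and with median-ratio scaling and GC correction (1 higher, Pdk4, and 6 lower). Of the 17960 annotated loci, these 3 settings called 1390, 1377 and 583 higher and 733, 595 and 273 lower. Only Pdk2 was called without P1 replicate 1, 2 or 3 or P7 replicate 1 or 4, and Slc2a4, Pfkm, Pdk2, Pdk4 and Pygb without P1 replicate 4. The other genes of the pathways had 9 calls, against 5 without a filter, 16 with every heart, 5 with the replicate block, 18 with weights, 5 without trend, 4 with GC correction, 4 with GC correction and the block, and 1 to 17 with 1 heart left out. The annotated loci had 1462 calls, against 620, 2573, 2951 with weights, 941 without trend, 413 with GC correction, 385 with GC correction and the block, 856 with median-ratio scaling and GC correction, and 167 (without P1 replicate 2) to 2835 (without P1 replicate 4).

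Samples with the same replicate number did not deviate together (r of -0.019, 0.122, -0.102 and -0.027), so the numbers were not taken as pairs. With the replicate block the same 3 genes were called. As paired differences, the ratios Slc2a4/Slc2a1 (1.79), Pgam2/Pgam1 (1.01) and Eno3/Eno1 (1.05) each gave p = 0.125 by an exact sign-flip test, the smallest that 4 pairs allow. Pgam2/Pgam1 also lost the threshold with quantile normalization (1.03) and GC correction (0.776). Hk2/Hk1 changed sign with GC correction (0.137) and Ldhb/Ldha with quantile normalization (0.00786). With 1 heart left out the log2 differences ran from 1.58 to 2.03, 0.892 to 1.19, 0.936 to 1.196, -0.318 to 0.0817 and -0.117 to 0.0748 for Slc2a4/Slc2a1, Pgam2/Pgam1, Eno3/Eno1, Hk2/Hk1 and Ldhb/Ldha.

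The sign of genes that were not called turned as follows, in log2 fold change. Median-ratio scaling gave Pfkfb1 -0.0967, Pfkfb4 -0.0887, Ldha -0.151, Ldhb -0.163, Pdp1 -0.132, Pgm2 -0.156 and Pdha1 -0.193, and quantile normalization Ldha -0.141, Ldhb -0.134, Pdp1 -0.145, Pgm2 -0.175 and Pdha1 -0.169. GC correction, with or without the replicate block, gave Pfkfb4 -0.184, Khk -0.132, Ldhb -0.0492, Slc16a1 0.121 and Pgm1 0.00538. Median-ratio scaling with GC correction gave Pfkl -0.247, Pfkfb4 -0.350, Khk -0.318, Pkm -0.182, Ldha -0.214, Ldhb -0.318, Pgm2 -0.00765, G6pdx -0.116 and Pdha1 -0.0101. Weights gave Pfkfb4 -0.0121, Gys1 0.0691 and Pgm1 0.0722. With 1 heart left out the ranges were -0.138 to 0.197 for Pfkfb1, -0.202 to 0.0371 for Pfkfb3, -0.0320 to 0.151 for Pfkfb4, -0.282 to 0.0713 for Pgam1, -0.0969 to 0.355 for Ldha, -0.0457 to 0.238 for Ldhb, -0.242 to 0.173 for Gys1, -0.128 to 0.113 for Pgm1, -0.0488 to 0.289 for Pgm2 and -0.0973 to 0.245 for Pdha1. The causes were not tested. Aldoc, Khk and Pfkfb1 rest on the fewest fragments.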
